A study of Mus musculus with 20 samples.

Results

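The immunity-related GTPases (IRGs) described here are *Irgm1*, *Irgm2*, *Igtp*, *Iigp1*, *Tgtp1* and *Tgtp2*, chosen by name and found through their Ensembl identifiers. These 6 genes were taken from a table of 55487 genes, 12799 of which held enough reads for a test. Their mRNA was followed in BV-2 microglia, an established, immortalized wild-type microglial cell line raised from mouse brain, by RNA sequencing of 20 cultures. The cultures formed 4 groups of 5: young untreated, aged untreated, young LPS-treated and aged LPS-treated. Lipopolysaccharide (LPS), a component of the bacterial outer membrane that is sensed by Toll-like receptor 4, was given at 100 ng/ml for 6 hours. Young means low passage and aged means long-term cultivation of the same line. The aged cells were frozen after that cultivation and used as aliquots, so the aged cultures share a history, and the long cultivation started from a later passage than the young cells. Age therefore stands for cultivation in vitro, and not for the age of an animal. Each of 5 batch numbers in the labels holds 1 culture of every group.

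IRGs are interferon-inducible proteins that defend cells from microbes living inside vacuoles. Effector IRGs, to which the products of *Iigp1* (Irga6) and of *Tgtp1* and *Tgtp2* (Irgb6) belong, load onto the vacuole of an invading pathogen and break it up. Regulatory IRGs, the products of *Irgm1*, *Irgm2* and *Igtp* (Irgm3), sit on the cell's own membranes and keep the effectors inactive there. In macrophages and microglia, LPS raises interferon beta, whose receptor signals through a complex with STAT2 and IRF9 to interferon-stimulated response elements (ISREs), while interferon gamma acts on gamma-activated sites (GAS).

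Promoters are shown because ISREs and GAS are the sequence elements through which interferons act. RefSeq windows of 300 bases, from 250 before to 50 after the annotated start on GRCm38.p6, were matched for 5 of the 6 genes. A window was searched on both strands for the ISRE core GAAANNGAAA, the GAS TTCNNNGAA and the NF-kappaB consensus. The ISRE core lay in 5 of the 5 windows, against 3.44% of all 32851 windows. A GAS lay in 4 of the 5, all but that of *Irgm1*, against 8.3% of all windows, and the NF-kappaB consensus in 0 of the 5, against 8.46%. Of 7 other IRG family genes with a window, 3 held the ISRE core, 2 a GAS and 0 the NF-kappaB consensus. Of 5 other interferon-inducible GTPases with a window, 5 held the ISRE core, 2 a GAS and 2 the NF-kappaB consensus. Stretches of 60 bases follow, written 5′ to 3′ on the gene's strand, with the ISRE core in capitals.
Irgm1, chr11:48871413-48871472, minus strand: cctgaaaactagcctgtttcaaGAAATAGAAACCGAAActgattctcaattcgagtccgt
Irgm2, chr11:58214888-58214947, plus strand: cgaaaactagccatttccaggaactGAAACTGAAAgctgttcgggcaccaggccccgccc
Igtp, chr11:58199497-58199556, plus strand: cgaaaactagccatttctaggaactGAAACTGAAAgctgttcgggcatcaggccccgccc
Tgtp1, chr11:48992289-48992348, minus strand: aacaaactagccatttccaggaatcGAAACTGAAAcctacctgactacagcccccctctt
Tgtp2, chr11:49064248-49064307, minus strand: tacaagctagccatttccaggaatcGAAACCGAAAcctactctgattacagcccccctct
*Irgm1* holds 2 overlapping matches, which form its longer run of capitals. In the other four genes the GAS ends 2 bases before the ISRE core begins. The ISRE core ends 14 bases before the annotated start in *Irgm1*, 24 in *Igtp*, 54 in *Irgm2*, 60 in *Tgtp2* and 67 in *Tgtp1*. Over the aligned bases of their windows, *Irgm2* and *Igtp* were 92.1% identical and *Tgtp1* and *Tgtp2* 80.5%, whereas the other pairs were 59.4% to 68.2% identical. Gap bases, 70 and 56 for the first 2 pairs and 62 to 122 for the others, were left out. A motif match describes the letters in the window and was not tested for binding.

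**Figure D1:**
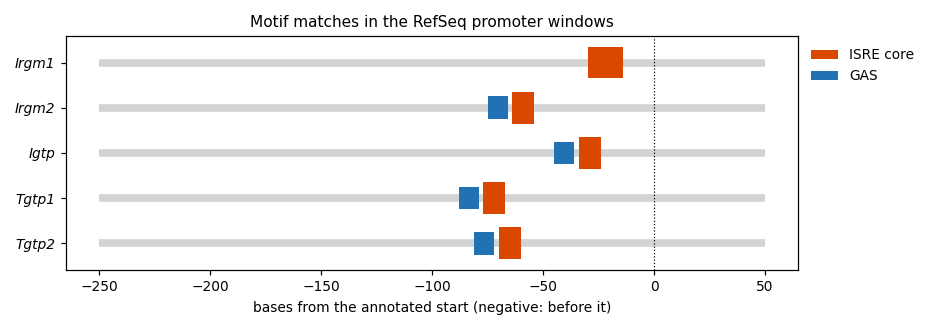
Positions of the ISRE core (orange) and GAS (blue) matches in the promoter windows of 5 IRG genes, in bases from the annotated start (dotted line). The ISRE core ends 14 to 67 bases before the start, and in 4 genes a GAS ends 2 bases before it.

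The libraries held 11371508 to 16829292 counts, and mitochondrial genes took 0.517% to 1.3% of them. A count of 3, the limit that a count of 0 allows, corresponded to 0.165 to 0.296 CPM (the count of a gene scaled to a library of 1000000 reads), a bound on counting error only. No 2 libraries of a group were alike within sampling noise (chi-square per degree of freedom 2.42 to 26.8 over 40 pairs). Macrophage markers were present in every culture, with *Csf1r* at 562 to 998 CPM and *Cd68* at 753 to 1409 CPM over the 20 libraries. The homeostatic microglial marker *Tmem119* was at 13.3 to 23.6 CPM in untreated and 1.66 to 4.83 CPM in LPS-treated cultures, and *P2ry12* and *Cx3cr1* stayed below 2 CPM in every library. Of 25 markers of neurons, astrocytes, oligodendrocytes, vessel cells and fibroblasts, 24 were below 2 CPM in every library, and *Flt1* was at 308 to 405 CPM. With library sizes alone in place of the trimmed mean of M values (TMM), the median of all genes moved to -0.23 (log2) for LPS in young and -0.16 in aged cultures, and 2407 genes rose and 6401 fell in young cultures instead of 3988 and 4282. In aged cultures these counts were 2172 and 5476 instead of 3523 and 3445, and between aged and young LPS-treated cultures 3167 and 1353 instead of 1794 and 1923.

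The genes lie in 3 clusters on GRCm38. *Irgm1* (chr11:48861968-48871683), *Tgtp1* (chr11:48985327-48994172) and *Tgtp2* (chr11:49057194-49064206) lie on the minus strand of a first stretch of chromosome 11. *Igtp* (chr11:58199556-58207591) and *Irgm2* (chr11:58199618-58222782) lie on the plus strand of a second. The start of *Irgm2* that RefSeq uses for its promoter window lies inside this span, and GENCODE also places an *Irgm2* transcript start at the first exon of *Igtp*. They share 162 exonic bases, 8.01% of those of *Igtp* and 4.39% of those of *Irgm2*. *Tgtp1* shares 223 exonic bases, 6.96% of its own, with *Gm12185*, another IRG gene. The promoter stretches printed for *Irgm1* and *Tgtp1* likewise lie inside the gene spans given here. Distances to the start refer to the RefSeq start.

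*Iigp1* lies on chromosome 18 (chr18:60376027-60392634, plus strand).

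How far reads could be told apart differed between the genes. Of all 50-base windows in its transcripts, *Tgtp1* shared 81.2% with some other gene and *Tgtp2* 86.6%, nearly all with each other (79.4% and 85.8%). For *Igtp* this share was 11.8%, for *Irgm2* 7.77%, for *Iigp1* 1.69% and for *Irgm1* 0.31%. The split of reads between *Tgtp1* and *Tgtp2* is therefore uncertain, because reads that match both may have been dropped or counted for either. *Igtp* and *Irgm2* had counts within 10% of each other in 8 of 20 libraries and the same count in 1, although most of their sequence differs.

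Levels are compared between genes as CPM per kilobase of the longest protein-coding transcript. In young untreated cultures *Irgm1* led at 6.79 ± 0.519 (SD, n = 5), followed by *Igtp* at 1.89 ± 0.104 and *Irgm2* at 1.35 ± 0.262, and the 3 ranges did not overlap. In aged untreated cultures the order was the same, at 5.07 ± 1.07, 1.05 ± 0.0851 and 0.801 ± 0.212, with *Igtp* and *Irgm2* overlapping. After LPS the levels in young cultures were 119.8 ± 13.6 for *Irgm1*, 35.1 ± 8.17 for *Igtp* and 20.9 ± 4.24 for *Irgm2*. In aged LPS-treated cultures they were 63.7 ± 12.5, 12.4 ± 4.45 and 8.27 ± 2.59. In both LPS-treated groups *Irgm1* stood above the other two in every library, while *Igtp* and *Irgm2* overlapped. The size of this lead depends on the length used, since the longest coding transcript of *Irgm1* has 2259 bases and all its exons together 5810. Over all exons *Irgm1* averaged 46.6 and *Igtp* 35.1 in young LPS-treated cultures, and 24.7 and 12.4 in aged ones. On that scale their ranges overlapped in both groups. The effector genes ranked below the regulators in every group. *Tgtp2* and *Iigp1* reached 1.07 ± 0.355 and 0.998 ± 0.41 in young LPS-treated cultures and overlapped, and *Tgtp1* reached 0.196 ± 0.0681, below both.

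**Figure D2:**
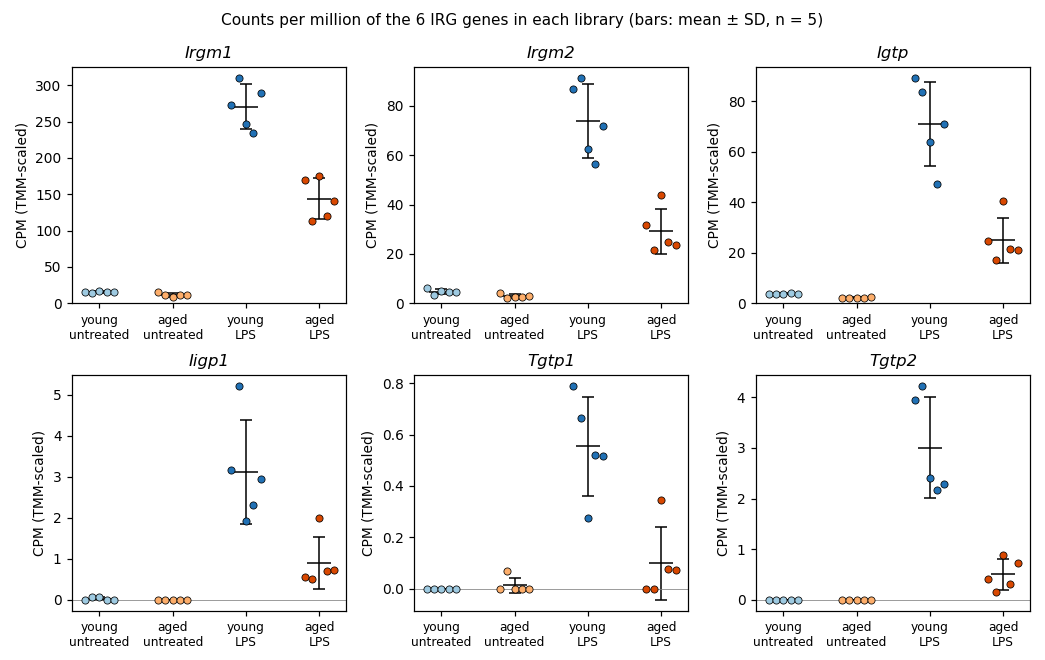
TMM-scaled CPM of each gene in each of the 20 libraries by group, with linear axes that differ between panels, where bars give the mean ± SD of 5 cultures. *Irgm1*, *Irgm2*, *Igtp* and *Tgtp2* were lower in every aged than in every young LPS-treated culture, whereas the ranges of *Iigp1* and *Tgtp1* overlapped.

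The first comparison asked whether long cultivation alone moved the IRG genes in resting cells. *Irgm1*, *Irgm2* and *Igtp* were measured in every untreated culture and had lower means in aged cells, but in edgeR's quasi-likelihood F-test none of them passed an adjusted p of 0.05. Of all 12799 genes tested, 11.5% were called in this comparison, 7.81% as lower in aged cells. *Irgm1*, a regulator needed for control of several intracellular bacteria, was at 15.7, 13.4, 16.5, 16.0 and 15.1 CPM in the young cultures of batches 1 to 5 and at 14.9, 10.8, 8.16, 11.5 and 11.9 CPM in the aged ones. The groups overlapped through the aged culture of batch 1. The log2 fold change was -0.42 ± 0.147 (SE, edgeR adjusted p = 0.0647, unadjusted p = 0.00863).

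*Irgm2*, a Golgi-associated regulator, was at 6.00, 3.45, 5.07, 4.48 and 4.73 CPM in young and 4.01, 2.09, 2.34, 2.69 and 3.00 CPM in aged untreated cultures. Again the aged culture of batch 1 reached into the young range. The log2 fold change was -0.75 ± 0.258 (SE, edgeR adjusted p = 0.063, unadjusted p = 0.00826). *Igtp*, the regulator Irgm3 found on the endoplasmic reticulum and lipid droplets, was at 3.66, 3.64, 3.74, 4.15 and 3.86 CPM in young and 2.26, 2.09, 1.94, 1.98 and 2.33 CPM in aged cultures. Every aged culture was below every young one. Its log2 fold change was -0.85 ± 0.278 (SE, edgeR adjusted p = 0.0507, unadjusted p = 0.00588).

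Within each of the 5 batches the aged culture was lower for *Irgm1*, *Irgm2* and *Igtp*, with ratios of aged to young of 0.495 to 0.954, 0.461 to 0.668 and 0.476 to 0.619. With the batch number as a replicate block, *Irgm2* (edgeR adjusted p = 0.0487) and *Igtp* (edgeR adjusted p = 0.0473) passed the threshold and *Irgm1* did not (edgeR adjusted p = 0.0543). DESeq2, which the authors used, called all 3 genes (adjusted p = 0.0302 for *Irgm1*, 0.00835 for *Irgm2* and 0.0035 for *Igtp*). The verdict on untreated cells thus lay at the threshold and turned with the fit, while the log2 fold changes stayed between -0.54 and -0.32 for *Irgm1*, -0.90 and -0.65 for *Irgm2* and -0.88 and -0.82 for *Igtp* when each library was left out in turn.

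The effector genes were at or under the floor without LPS, so no fold between aged and young untreated cells can be given. *Iigp1* had 2 counts in all young and 0 in all aged untreated cultures. *Tgtp1* had 0 and 1, and *Tgtp2* had 0 in all 10 untreated libraries.

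LPS raised the measured IRG genes in young cells in every batch. The regulators rose 15.5 to 18.6-fold in young cells, and 31.2% of all genes tested were called higher in this comparison. *Irgm1* reached 273, 309, 247, 234 and 289.7 CPM in the young LPS-treated cultures, a log2 fold change of 4.14 ± 0.138 (SE, edgeR adjusted p = 6.19e-17). *Irgm2* reached 86.7, 91.1, 62.6, 56.5 and 71.6 CPM, a log2 fold change of 3.95 ± 0.20 (SE, edgeR adjusted p = 7.66e-14). *Igtp* reached 89.1, 83.7, 64.1, 47.4 and 70.9 CPM, a log2 fold change of 4.21 ± 0.205 (SE, edgeR adjusted p = 4.00e-14). No LPS-treated culture came near the untreated range of these genes. Their log2 fold changes stood against a median of -0.0106 over all genes tested.

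The effector genes became detectable in young cells only after LPS, except for the 2 counts of *Iigp1*. *Iigp1* and *Tgtp2* passed the filter on low counts only through their LPS-treated libraries, so a difference between treated and untreated groups was built into their being tested, and *Tgtp1* was not tested. *Iigp1* counts in young LPS-treated cultures were 32, 63, 28, 31 and 40, or 117-fold the untreated level over the group's pooled counts (exact 95% counting interval 32.0 to 974). *Tgtp2* counts were 40, 51, 35, 29 and 31, which is at least 74.9-fold higher than a floor of 3 counts over the untreated group. *Tgtp1* counts were 8, 8, 4, 7 and 7, at least 13.7-fold higher by the same floor. *Tgtp1* held 34 of the 220 counts of the pair in young LPS-treated cells, 15.5% (exact 95% binomial interval 10.9% to 20.9%), and 7 of 42 in aged ones, 16.7% (6.97% to 31.4%).

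Aged cells also raised the IRG genes after LPS, to lower levels. The regulators rose 10.4 to 12.6-fold, against 27.5% of all genes tested called higher in aged cells. *Irgm1* reached 169, 113, 175, 119.9 and 141 CPM (log2 fold change 3.65 ± 0.139 SE, edgeR adjusted p = 1.07e-15). *Irgm2* reached 31.7, 21.4, 44.0, 24.9 and 23.7 CPM (log2 fold change 3.37 ± 0.217 SE, edgeR adjusted p = 9.56e-12). *Igtp* reached 24.7, 17.2, 40.4, 21.7 and 20.98 CPM (log2 fold change 3.56 ± 0.228 SE, edgeR adjusted p = 8.62e-12). For each of the regulators, batch 3 was the highest aged LPS-treated culture and batch 2 the lowest.

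Among the effectors, *Iigp1* counts in aged LPS-treated cultures were 8, 6, 29, 9 and 10, which is at least 24.8-fold higher than the floor over the aged untreated group. *Tgtp2* counts were 6, 2, 13, 4 and 10, at least 14.0-fold higher. *Tgtp1* counts were 0, 0, 5, 1 and 1, a total of 7 against 1 in untreated aged cultures, and the groups overlapped. Batch 3 was again the highest culture for all 3 effector genes.

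**Figure D3:**
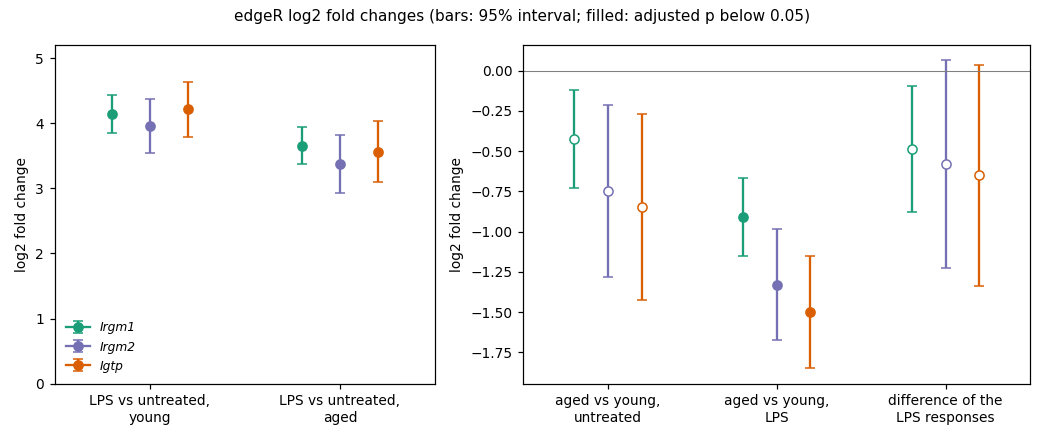
edgeR log2 fold changes of *Irgm1*, *Irgm2* and *Igtp* with bars of the 95% interval, for LPS against untreated cultures (left) and for aged against young cultures and the difference of the LPS responses (right), with filled points for adjusted p below 0.05. LPS values lie between 3.37 and 4.21, aged cells were lower after LPS with values of -1.499 to -0.91, and the untreated and difference values did not pass.

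After LPS, aged cells held less mRNA of the 3 regulators than young cells. They were 1.88 to 2.83-fold lower, and 15% of all genes tested were called lower in this comparison. The log2 fold change was -0.91 ± 0.117 (SE, edgeR adjusted p = 4.97e-06) for *Irgm1*, with no aged culture above 175 CPM and no young culture below 234 CPM. It was -1.33 ± 0.167 (SE, edgeR adjusted p = 3.93e-06) for *Irgm2*, at most 44.0 CPM in aged and at least 56.5 CPM in young cultures. *Igtp* had a log2 fold change of -1.499 ± 0.168 (SE, edgeR adjusted p = 1.14e-06), and its groups were separated by the narrowest gap of the regulators, 40.4 CPM in the highest aged and 47.4 CPM in the lowest young culture.

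The effector genes *Iigp1* and *Tgtp2* passed the filter on low counts only through the young LPS-treated libraries, 5 of which but only 1 of the aged ones reached its limit of 0.696 CPM, so a lower level in aged cells was favoured by their being tested. Their fits are therefore given as a description, and a p only from the fit without a filter, in which every gene with a read was tested. *Iigp1* was at 0.562, 0.495, 2.00, 0.697 and 0.723 CPM in aged and 3.16, 5.23, 1.93, 2.31 and 2.95 CPM in young LPS-treated cultures. The groups overlapped because in batch 3 the aged culture stood slightly above the young one, at a ratio of 1.04. Its log2 fold change was -1.75 ± 0.35 (SE), and -1.74 without the filter (edgeR adjusted p = 8.78e-05). *Tgtp2* was at 0.421, 0.165, 0.897, 0.31 and 0.723 CPM in aged and 3.95, 4.23, 2.41, 2.16 and 2.28 CPM in young LPS-treated cultures, without overlap. Its log2 fold change was -2.51 ± 0.349 (SE), and -2.499 without the filter (edgeR adjusted p = 6.26e-07). *Tgtp1* and *Tgtp2* summed gave -2.49, also as a description. *Tgtp1* alone was 5.15-fold lower over pooled counts (7 against 34, exact 95% counting interval 2.25 to 13.8), an interval that leaves out the spread between cultures.

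In all 5 batches the aged LPS-treated culture was lower than the young one for *Irgm1*, *Irgm2*, *Igtp* and *Tgtp2*, and in 4 of 5 for *Iigp1* and *Tgtp1*. Ratios of aged to young within a batch ran from 0.367 to 0.711 for *Irgm1*, 0.235 to 0.703 for *Irgm2* and 0.205 to 0.63 for *Igtp*. The largest ratio of each regulator was that of batch 3. In bulk RNA, fewer cells that express a gene and less RNA of it per cell cannot be told apart.

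The difference of the LPS responses was then tested as an interaction, since aged cells started from lower means. The log2 rise after LPS was smaller in aged cells by 0.49 for *Irgm1* (95% interval of aged minus young -0.88 to -0.0975, edgeR adjusted p = 0.139). For *Irgm2* the difference was -0.58 (-1.22 to 0.0625, edgeR adjusted p = 0.317) and for *Igtp* -0.65 (-1.34 to 0.0361, edgeR adjusted p = 0.289). None of the 3 was called, where 6.39% of all genes tested were, and unadjusted p was below 0.05 for *Irgm1* alone (0.0166). The intervals allow a rise in aged cells that is smaller by up to 1.34 on the log2 scale and do not show that the responses were equal. Without the aged LPS-treated culture of batch 3, *Igtp* passed at -0.89 (edgeR adjusted p = 0.028), and with the replicate block DESeq2 called *Irgm1* (adjusted p = 0.0435). For *Iigp1* and *Tgtp2* the untreated groups lay at or under the floor, so the fitted interaction is not interpreted.

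Ratios between regulators in the same library do not depend on the scaling between libraries. This comparison was chosen after the values were seen and covered 3 pairs of genes and 4 contrasts, 12 exact two-sided permutation tests with a smallest possible p of 0.00794. In LPS-treated cultures there were 0.258 counts of *Igtp* for each count of *Irgm1* in young and 0.169 in aged cells, a log2 difference of -0.61 ± 0.167 (SE, exact permutation p = 0.0159, adjusted p = 0.0952). The ratio of *Irgm2* to *Irgm1* was 0.269 and 0.199 in the same groups, a log2 difference of -0.44 ± 0.124 (SE, exact permutation p = 0.0238, adjusted p = 0.0952). Within all 5 batches both ratios were lower in the aged LPS-treated culture, but permuting within 5 batches cannot give a p below 0.0625. Without LPS the ratio of *Igtp* to *Irgm1* was 0.249 in young and 0.188 in aged cells (exact permutation p = 0.0238, adjusted p = 0.0952), lower in the aged culture in 4 of 5 batches. None of the 12 contrasts passed after adjustment. Between *Igtp* and *Irgm2*, which share their first exon sequence in part, the ratio was 0.957 in young and 0.848 in aged LPS-treated cells (exact permutation p = 0.0476, adjusted p = 0.114).

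**Figure D4:**
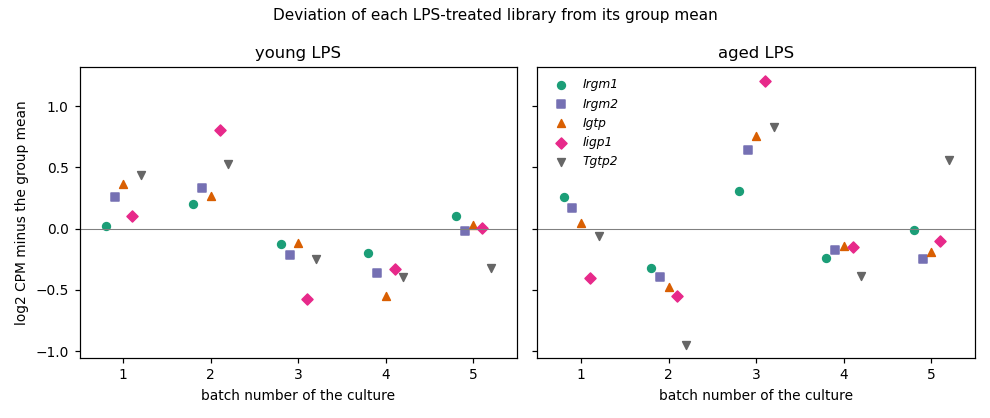
Deviation of each LPS-treated library from its group mean in log2 CPM, for the 5 tested IRG genes by batch number. All 5 genes lie above 0 in the aged culture of batch 3 and below 0 in that of batch 2, and in young cultures all lie above 0 in batches 1 and 2 and below 0 in batches 3 and 4.

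The tested IRG genes varied together among cultures of a group. After removing group means, the correlation of log2 CPM between pairs of the 5 tested genes ran from r = 0.683 for *Irgm1* with *Iigp1* to r = 0.967 for *Irgm2* with *Igtp* (10 pairs). These values cover the 10 LPS-treated libraries, since the effector genes were at or under the floor in the untreated ones, and the genes of a library share its depth and scaling. In young LPS-treated cultures batches 1 and 2 were above the group mean for all 5 genes and batches 3 and 4 below it. Batch 3 was thus below the mean in young and above it in aged LPS-treated cells.

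Most other tested IRG family genes were also lower in aged than in young cells after LPS. Of 12 on the list, 7 were tested, 3 of them (*Ifi47*, *Gm12250* and *Gm12185*) having passed the filter only through LPS-treated libraries. With LPS, 6 were higher and 1 lower in young cells, against 31.2% and 33.5% of all genes. In aged cells 5 were higher, against 27.5%. For those 3 genes a difference between treated and untreated groups was built in. Between aged and young LPS-treated cultures 6 were lower and 1 was not called, against 15% lower among all genes tested, with a median log2 fold change of -1.81 against 0.00846. *Gm12185*, 1 of these 6, passed the filter only through young LPS-treated libraries, so a lower level in aged cells was favoured by its being tested. The median is its own value and is given as a description. *Ifi47*, encoding Irgd, went from 24.2 ± 7.77 CPM in young to 6.39 ± 2.76 CPM in aged LPS-treated cultures (SD, n = 5, log2 fold change -1.90, edgeR adjusted p = 3.49e-06). *Gm12250*, the locus of the effector Irgb10 that the annotation calls a processed pseudogene, went from 25.8 ± 7.54 to 6.59 ± 3.11 CPM (log2 fold change -1.95, edgeR adjusted p = 5.82e-06). *Gm5431* had the largest change of the list, from 10.2 ± 4.73 to 1.48 ± 1.08 CPM (log2 fold change -2.73, edgeR adjusted p = 2.56e-06).

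*9930111J21Rik2* (-1.68) and *9930111J21Rik1* (-1.63) were also lower in aged LPS-treated cells on the log2 scale, with edgeR adjusted p of 3.49e-06 and 5.00e-05. The log2 fold change of *Gm12185* was -1.81, a description since it passed the filter only through young LPS-treated libraries. *Gm12185* overlaps *Tgtp1*, and the tandem genes among these share sequence, so their reads may be split. *Irgq*, a distant relative in the family, was at 12.3 ± 1.74 and 15.0 ± 3.09 CPM in the LPS-treated groups (log2 fold change 0.28, edgeR adjusted p = 0.0967) and was the gene that LPS lowered in young cells (-0.57, edgeR adjusted p = 3.39e-04).

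In untreated cells 1 of the 7 genes was called, *Gm5431*, lower in aged cells at 0.349 ± 0.112 against 1.55 ± 0.255 CPM (log2 fold change -2.13, edgeR adjusted p = 0.00757), near the share of 11.5% called among all genes. In the interaction, *9930111J21Rik2* was the only gene of the 7 called, where 6.39% of all genes tested were called. LPS raised it from 7.86 to 24.6 CPM in young and from 5.24 to 7.56 CPM in aged cells (log2 difference -1.09, edgeR adjusted p = 0.036). *Irgm1*, *Irgm2* and *Igtp* had smaller differences of the same sign.

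Guanylate-binding proteins, Mx proteins and a very large inducible GTPase, the other interferon-inducible GTPase families, were followed as a list of 14, of which 8 were tested. Of these 8, 7 passed the filter only through LPS-treated libraries, so their rise with LPS was built in. All 8 were lower in aged than in young LPS-treated cells, against 15% of all genes tested, by a median log2 fold change of -1.79. For 1 of the 8, *Gvin1*, which passed the filter only through young LPS-treated libraries, this direction was favoured by its being tested. Without LPS, *Mx1* and *Gbp5* had 0 CPM in every aged culture and means of 0.126 and 0.213 CPM in young ones. Neither was called (edgeR adjusted p = 0.432 and 0.368). Called lower in aged untreated cells were 2 of the 8, against 7.81% of all genes. They were *Gbp2* (-3.88, edgeR adjusted p = 0.0241) and *Gbp3* (-2.33, edgeR adjusted p = 0.04). Both were low there, at means of 1.22 and 1.54 CPM in young and 0.0735 and 0.30 CPM in aged cultures. In young and aged LPS-treated cultures *Mx1*, an antiviral GTPase, was at 41.6 ± 12.1 and 8.45 ± 7.15 CPM (log2 fold change -2.27, edgeR adjusted p = 7.06e-05). *Gbp5*, which promotes inflammasome assembly, was at 70.9 ± 26.2 and 14.7 ± 9.88 CPM (-2.25, edgeR adjusted p = 5.42e-05). *Gbp2*, which coats pathogen vacuoles together with IRGs, was at 242 ± 69.7 and 64.1 ± 28.6 CPM (-1.91, edgeR adjusted p = 1.86e-06). *Gvin1* was at 2.798 ± 0.468 and 0.781 ± 0.387 CPM, given as a description. In the edgeR interaction 0 of the 8 were called, against 6.39% of all genes tested. An unadjusted p below 0.05 was found for 0 of them, with untreated levels near 0 for most of them.

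**Figure D5:**
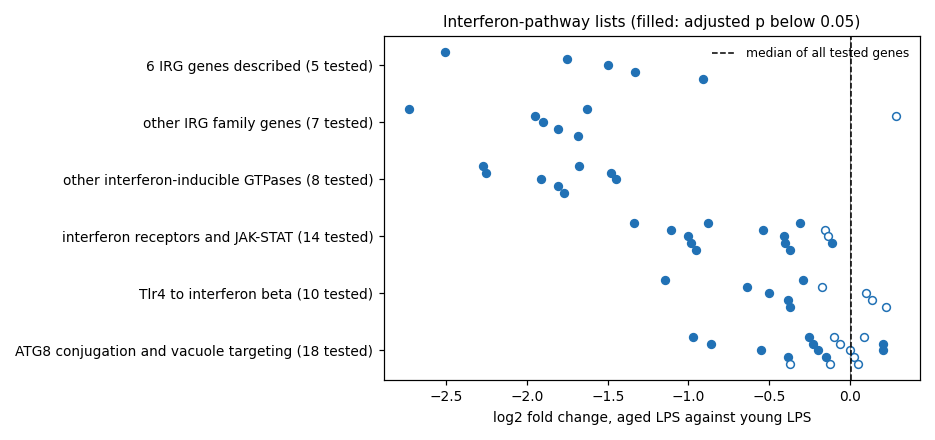
edgeR log2 fold changes between aged and young LPS-treated cultures for the tested genes of each list, 1 point per gene, filled where the adjusted p was below 0.05, with the median of all tested genes as a dashed line. The 5 tested IRG genes lie between -2.51 and -0.91, and the ATG8 list runs from -0.97 to 0.21 with a median of -0.14. *Iigp1*, *Tgtp2*, *Gm12185* and *Gvin1* passed the filter only through young LPS-treated libraries. A lower level in aged cells was favoured by their being tested, so their points are a description. *Irgm1*, *Irgm2* and *Igtp* lie between -1.499 and -0.91.

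Upstream of the IRG genes, the interferon ligands were close to the floor. None of 12 was tested. *Ifnb1*, which encodes interferon beta, had 0 counts in all untreated libraries, 5, 7, 2, 1 and 5 counts in young and 2, 0, 4, 2 and 2 counts in aged LPS-treated ones. The pooled level in aged cells was 0.471 of that in young cells (exact 95% counting interval 0.197 to 1.05), so a difference was not detectable at this depth. *Ifng* had 0 counts in every library.

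Interferon receptors and JAK-STAT components were all tested, 14 of 14. LPS raised 12 and lowered 2 in young cells, where 31.2% of all genes were called higher and 33.5% lower, and raised 11 and lowered 2 in aged cells, where 27.5% and 26.9% were. Between aged and young LPS-treated cultures 12 were lower and 0 higher, against 15% and 14% of all genes, with a median log2 fold change of -0.47. *Socs1* had passed the filter only through LPS-treated libraries. *Irf1*, which interferon gamma and LPS both induce, was at 88.3 ± 21.9 and 40.9 ± 10.2 CPM (-1.11, edgeR adjusted p = 2.00e-05). *Irf9*, the DNA-binding subunit of the complex that reads the ISRE, was at 73.5 ± 4.67 and 55.2 ± 4.24 CPM (-0.41, edgeR adjusted p = 0.00154).

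The largest changes on that list were those of *Stat2* (-1.34, edgeR adjusted p = 1.68e-05), *Irf1*, the negative regulator *Usp18* (-1.004, edgeR adjusted p = 0.00255) and the negative regulator *Socs1* (-0.98, edgeR adjusted p = 0.00196). In untreated cells 5 of the 14 were lower in aged cultures, against 7.81% of all genes, and *Irf1* (-0.26, edgeR adjusted p = 0.40) and *Irf9* (-0.29, edgeR adjusted p = 0.108) were not among them. In the interaction 3 of the 14 were called as a smaller rise in aged cells, against 2.27% of all genes called in that direction. They were *Stat2* (-1.23, edgeR adjusted p = 0.0155), *Irf1* (-0.85, edgeR adjusted p = 0.0349) and *Jak2* (-0.69, edgeR adjusted p = 0.0132).

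The pathway from Toll-like receptor 4 to interferon beta held 10 tested genes. Between aged and young LPS-treated cultures 6 were lower and 0 higher, against 15% and 14% of all genes, with a median log2 fold change of -0.33. The transcription factor *Irf7* led at 206 ± 51.1 and 92.9 ± 37.2 CPM (-1.15, edgeR adjusted p = 2.30e-04), followed by the LPS co-receptor *Cd14* (-0.64, edgeR adjusted p = 0.0166) the adaptor *Ticam1* (-0.50, edgeR adjusted p = 0.00115) and *Ly96*, whose product binds LPS together with Toll-like receptor 4 (-0.38, edgeR adjusted p = 0.0429). The kinase *Tbk1* was the only gene of these 10 called in the interaction (-0.28, edgeR adjusted p = 0.0136), where 6.39% of all genes tested were called.

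ATG8 conjugation and vacuole targeting genes, through which IRGs are guided to vacuoles and away from the cell's own membranes, held 18 tested genes. In aged LPS-treated cells 8 were lower and 2 higher than in young ones, against 15% and 14% of all genes, with a median log2 fold change of -0.14. *Rnf213* (-0.97, edgeR adjusted p = 2.81e-04) and *Trim21* (-0.86, edgeR adjusted p = 7.21e-05), both ubiquitin ligases, and the autophagy receptor *Sqstm1* (-0.55, edgeR adjusted p = 0.00185) led the list, before the ATG8 family gene *Gabarapl1* (-0.38, edgeR adjusted p = 0.00155). In the edgeR interaction 0 of the 18 were called, against 6.39% of all genes tested, and 2 had an unadjusted p below 0.05.

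Genes most like the IRG mean were sought among all tested genes by Pearson correlation of log2 CPM over 20 libraries, given as a description since the libraries of a group share treatment and age. The 5 highest were *Ifit2* (r = 0.997), *Parp12* (r = 0.997), *Clic4* (r = 0.996), *Dtx3l* (r = 0.996) and *Ifi205* (r = 0.995). Among them *Ifit2* averaged 14.2, 9.69, 637 and 177 CPM, and *Clic4* 544, 482, 1852 and 1132 CPM, in young untreated, aged untreated, young LPS-treated and aged LPS-treated cultures. After removing group means, which leaves the 2 effectors in that mean almost without variation in the untreated libraries, the highest were *Stat2* (r = 0.93), *9930111J21Rik2* (r = 0.927), *S1pr2* (r = 0.924), *Themis2* (r = 0.916) and *Gm43302* (r = 0.903).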

How the data were processed

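The authors prepared stranded libraries from polyadenylated RNA, sequenced them as paired reads, aligned them to GRCm38 with STAR 2.6.1d and deposited raw counts per Ensembl gene from featureCounts 1.5.1, per the submitters' processing notes and the study's methods. How featureCounts treated strand, multiply aligned reads and overlaps is not given in the sources used here. All 20 sample columns were used. Symbols, positions and transcripts came from the GENCODE annotation of GRCm38, and promoter windows from RefSeq (GRCm38.p6).

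Here, edgeR 4.0.16 (R 4.3.3) fitted a model of the 4 groups, without covariates, to all 20 libraries after TMM scaling and filterByExpr. Adjusted p-values follow Benjamini-Hochberg over 12799 genes, SE is the absolute log2 fold change over the square root of F, 95% intervals use the t quantile at the residual degrees of freedom of the F-test, and CPM are TMM-scaled. Scripts were tested on simulated data. Alternatives were DESeq2 1.42.0, its size factors, library sizes alone, other filters, a log2 fold change of at least 1, only the groups compared, *Tgtp1* and *Tgtp2* summed, each library left out and a replicate block. The labels give the replicate number as a batch, and it was used here to pair cultures. What the cultures of a batch shared is not given. In a check, same-numbered cultures deviated from their group means with a mean r of 0.268 between untreated and LPS-treated cultures of an age and 0.0769 between aged and young ones. The low-count folds are ratios of pooled counts over pooled TMM-scaled library sizes.

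The genes and lists were chosen with earlier results of these data known. Named were the 6 genes, all other tested IRG genes, *Ifnb1*, *Ifng*, *Irf1*, *Irf9*, at most the 4 called genes of largest change per list and contrast, and the 5 genes most like the IRG mean, and 1 further gene of this rule and of the JAK-STAT list is not reported here. P-values measure the spread between these cultures of a single line.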

Additional observations from a re-analysis of the deposited data

Results flagged for a closer look

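Among 18 sets of 5 cultures of the IRG genes with counts above the floor, 2 held a culture farther from the rest than Dixon's 95% critical value of 0.71, where chance gives about 1 in 20. Both were the aged LPS-treated culture of batch 3, at 2.00 CPM of *Iigp1* (gap 0.848 of the range) and 0.345 CPM of *Tgtp1* (gap 0.776 of the range). Without this culture the log2 fold change of *Iigp1* between aged and young LPS-treated cells was at its lowest over all left-out libraries, -2.30.

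Among the genes of the chosen lists, with cell type markers left out, edgeR called an interaction for *9930111J21Rik2* (log2 difference -1.09), *Jak2* (-0.69), *Stat2* (-1.23), *Irf1* (-0.85) and *Tbk1* (-0.28). All 5 rose less in aged cells. Of all genes tested, 4.12% were called in the interaction with a positive log2 difference and 2.27% with a negative one. Of the microglia and macrophage markers, 1 was also called, with a negative difference.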

How the results depend on the processing

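Of the 6 IRG genes, edgeR called 0 between aged and young untreated cultures, against 3 (*Irgm1*, *Irgm2*, *Igtp*) with DESeq2, with the replicate block in DESeq2, without a filter on low counts and with only the groups compared, 2 with the replicate block in edgeR, and 1 with library sizes alone. Leaving out each library in turn gave 0 to 3: 3 without the aged LPS-treated culture of batch 3, 2 without that of batch 2 or the aged untreated culture of batch 1, 1 without the young LPS-treated culture of batch 1, 2 or 4, and 0 without each of the other libraries. The cause was not tested. At least 10 counts in every library left 3 genes to test, all 3 called for LPS at either age and between aged and young LPS-treated cultures. The main fit called 5 in each, 2 of which (*Iigp1* and *Tgtp2*) passed its filter only through young LPS-treated libraries. Of all genes it called 31.2% and 27.5% higher with LPS in young and aged cells, and 15% lower in aged LPS-treated cells. Only the groups compared left 3 for LPS in aged cells. Over the alternative settings the count ran from 3 to 6 for LPS in young cells and between aged and young LPS-treated cultures, and from 3 to 5 for LPS in aged cells. The interaction count of 0 became 1 with the replicate block in DESeq2 and ranged from 0 to 1 without each library (1, *Igtp*, without the aged LPS-treated culture of batch 3). The replicate block changed no other call of the 6 genes in edgeR. No log2 fold change that was called reversed under any setting. Low counts limit *Iigp1*, *Tgtp1*, *Tgtp2* and *Ifnb1*.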
